A study of Mus musculus with 3 samples.

Results

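The subject is a group of 9 enzymes of the mevalonate and sterol synthesis pathway, Hmgcs1, Mvk, Mvd, Idi1, Fdps, Fdft1, Sqle, Lss and Cyp51. They were taken by gene symbol from the array's annotation, which gave them 24 of the 45037 probe sets besides controls, and 9 of 18193 named genes. Spleens of BALB/c mice were the source of memory phenotype CD4 T cells, which are helper cells, and these were sorted to over 99% purity. Their RNA was hybridised to Affymetrix mouse arrays, which give an intensity in arbitrary linear units per probe set. The high fat diet (HFD) group, fed a diet with 60 kcal% fat for 10 weeks, held 2 arrays, and the normal diet (ND) group, fed for the same 10 weeks, held 1 array. The labels name no transgene or treatment besides diet and give neither age nor sex nor whether a sample is 1 mouse or a pool. P-values therefore measure only the spread between the 2 HFD samples, which may be technical, and the lone ND array has no error of its own.

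The mevalonate pathway turns acetyl-CoA into isoprenoid units, which feed protein prenylation, dolichol and ubiquinone as well as cholesterol. Its genes are induced together by the transcription factor SREBP2 when membrane sterol is low. T cells that become activated and divide are known to raise sterol synthesis through SREBP factors, while liver X receptors oppose it. In pathway order, Hmgcs1, Mvk, Mvd, Idi1 and Fdps act before the branch to sterols, and Fdft1, Sqle, Lss and Cyp51 act after it.

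Over the whole genome the ND sample stood apart, which bears on every value below. Genes differed in log2 value by a median of 0.39 between HFD 1 and ND, 0.45 between HFD 2 and ND, and 0.13 between the HFD arrays, sign aside. The labels give BALB/c for every sample. H2-Ea, a class II histocompatibility gene transcribed in BALB/c mice and silent in some other strains such as C57BL/6, read 536 and 602 on the HFD arrays and 11.5 on the ND array, while H2-Aa read 3546 and 3664 on the HFD arrays and 7207 on the ND array (both genes were chosen after their values were seen). Diet, strain background and any handling of the ND sample cannot be told apart. The 11 T cell markers read 377 or more on every array, and 8 fell and 0 rose in HFD, where 29.2% of all genes fell. With arrays centred on a common median 3 of them fell, and without a variance trend 2. Cd4, the gene of the sorted population, read 609 and 377 in HFD and 911 in ND (log2 difference -0.90, adjusted p = 0.0048, and 0.078 without a variance trend and 0.090 with no filter). Among the others Cd44, Cd3e and Cd3g fell by 0.40 to 0.78 on the log2 scale, although the Cd3g call ended with arrays centred or without a variance trend and that of Cd44 with all probe sets averaged.

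Promoter sequence is shown first, for 3 enzymes that rose in HFD and for Mvk, which was not called, since SREBP2 acts through such sequence. RefSeq windows of build GRCm38.p6, each with 250 bases before and 50 after the transcription start, matched 6 of the 9 genes: Hmgcs1, Mvk, Mvd, Idi1, Lss and Cyp51. Both strands were searched for the sterol regulatory element core TCACNCCAC, its E-box form TCACGTGA, the CCAAT box CCAAT (bound by NF-Y) and the GC box GGGCGG (bound by Sp1). Sequences run 5′ to 3′ on the gene's strand, and capitals mark a match on either strand. Hmgcs1 lies on the plus strand at chr13:119690101-119690400, Idi1 on the plus strand at chr13:8885356-8885655, Cyp51 on the minus strand at chr5:4104648-4104947 and Mvk on the plus strand at chr5:114444019-114444318.
Hmgcs1: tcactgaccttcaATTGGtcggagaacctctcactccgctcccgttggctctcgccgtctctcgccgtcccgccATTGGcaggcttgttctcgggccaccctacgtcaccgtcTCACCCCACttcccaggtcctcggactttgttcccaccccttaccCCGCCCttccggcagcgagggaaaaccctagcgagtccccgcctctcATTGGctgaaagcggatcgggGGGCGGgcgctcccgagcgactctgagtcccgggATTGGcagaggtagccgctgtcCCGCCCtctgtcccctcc
Idi1: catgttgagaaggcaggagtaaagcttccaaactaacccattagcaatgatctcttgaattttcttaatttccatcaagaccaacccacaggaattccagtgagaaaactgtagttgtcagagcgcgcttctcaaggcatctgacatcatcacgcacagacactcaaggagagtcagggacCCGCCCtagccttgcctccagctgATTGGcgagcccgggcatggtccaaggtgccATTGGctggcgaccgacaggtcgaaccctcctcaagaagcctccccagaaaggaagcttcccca
Cyp51: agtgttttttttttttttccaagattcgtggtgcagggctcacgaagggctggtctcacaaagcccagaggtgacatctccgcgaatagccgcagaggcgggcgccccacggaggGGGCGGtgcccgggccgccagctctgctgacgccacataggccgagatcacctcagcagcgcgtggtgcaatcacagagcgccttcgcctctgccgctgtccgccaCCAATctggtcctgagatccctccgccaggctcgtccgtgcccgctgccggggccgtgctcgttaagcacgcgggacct
Mvk: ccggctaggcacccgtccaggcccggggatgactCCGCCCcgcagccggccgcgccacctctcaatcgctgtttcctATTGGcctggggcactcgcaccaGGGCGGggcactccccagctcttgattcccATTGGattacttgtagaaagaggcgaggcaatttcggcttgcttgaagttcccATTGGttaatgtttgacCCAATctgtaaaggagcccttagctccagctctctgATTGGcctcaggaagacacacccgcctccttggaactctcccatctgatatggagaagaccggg

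The sterol regulatory element core was found in 1 of the 6 windows, that of Hmgcs1, with its first base 137 bases before the start, reading TCACCCCAC. It occurs in 1.24% of the 32851 promoter windows of the same length. The E-box form was in 0 of 6 windows and 0.974% of all windows. A CCAAT box was in 6 of 6 windows, against 37.4% of all windows, with 5 matches for Mvk, 4 for Hmgcs1, 2 each for Idi1 and Mvd and 1 each for Lss and Cyp51. A GC box was also in 6 of 6 windows, against 35.7% of all windows. No match overlapped another in the 6 windows. Called and uncalled members alike thus held CCAAT and GC boxes. A match here is a match of letters, and a window without one says nothing about binding.

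The comparison asked which of the enzymes differed between memory phenotype CD4 T cells of HFD and ND mice. Of the 9 enzymes, 6 rose and 0 fell in HFD: Hmgcs1, Idi1, Fdps, Sqle, Lss and Cyp51. Over all 10341 genes tested, 20.5% rose and 29.2% fell. The balance over all genes depends on scaling: 2117 were called higher and 3015 lower here, but 2757 higher and 2097 lower with arrays centred on a common median, where 7 of the 9 enzymes were higher and 0 lower. Idi1 changed by 6.08-fold, Sqle by 3.01-fold, and Fdps, Cyp51, Hmgcs1 and Lss by 1.96 to 2.37-fold. Mvk, Mvd and Fdft1 were not called. The median log2 difference was 1.17 over the 9 enzymes and -0.15 over all genes tested, so it lay 1.32 above all genes (1.21 after quantile normalization and 0.74 with all probe sets of a gene averaged). The test was limma's moderated test on log2(intensity + 17.7), with Benjamini-Hochberg adjustment over all genes and genes were called where that adjusted p fell under 0.05. For each gene the probe set with the highest mean was used, and all 9 enzymes passed a filter on low values. That scale understates the change of dim genes.

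**Figure D1:**
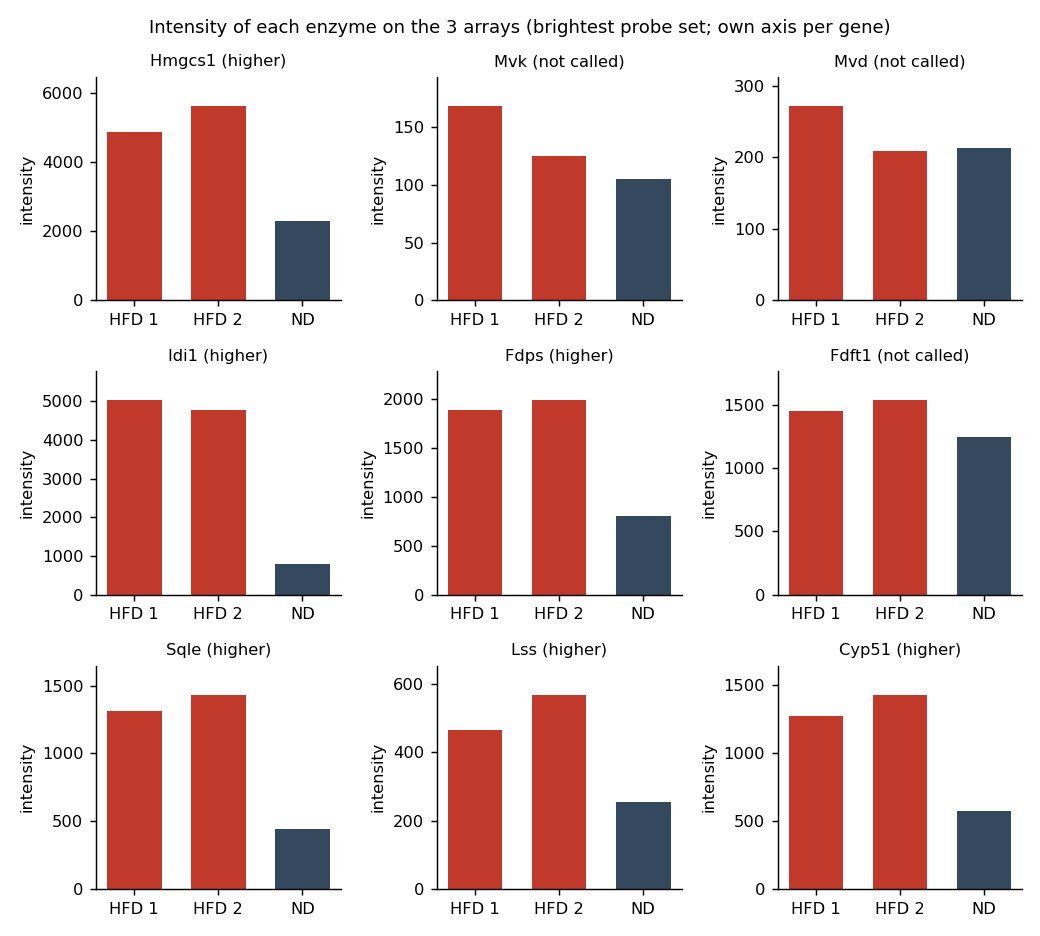
Intensity (linear units, axis from 0, own axis per gene) of the brightest probe set of each enzyme on HFD 1, HFD 2 and the single ND array. For 8 enzymes both HFD bars stand above the ND bar, and for Mvd the ND value of 213 lies between 272 on HFD 1 and 209 on HFD 2.

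The pathway opens with Hmgcs1, the cytosolic synthase that condenses acetyl-CoA with acetoacetyl-CoA. It read 4864 and 5615 on the HFD arrays, against 2310 on the ND array. Both HFD values were above the ND value, and the log2 difference was 1.17 ± 0.11 (SE), with an adjusted p of 4.7e-06. All 5 of its probe sets were called higher when every probe set was tested singly, at log2 differences of 0.75 to 1.19. The dimmest read 117 and 102 in HFD and 44.7 in ND. It passed the filter on a mean above 71.4 only through the HFD arrays, so its call adds little. The next enzymes of the group, Mvk and Mvd, were dim and not called. Mvk, which phosphorylates mevalonate, read 168 and 125 in HFD and 105 in ND. The HFD values differed from each other by more than HFD 2 differed from ND. Its log2 difference was 0.40, with a 95% interval of -0.23 to 1.04 and an adjusted p of 0.27. The other Mvk probe set read 92.3 and 70.2 in HFD and 117 in ND, the opposite direction, and was not called either.

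Mvd, which decarboxylates mevalonate diphosphate to isopentenyl diphosphate, read 272 and 209 in HFD and 213 in ND. The groups overlapped. The log2 difference was 0.15, with a 95% interval of -0.34 to 0.65 and an adjusted p of 0.61. Its other probe set read 179 and 170 in HFD and 183 in ND. The intervals of Mvk and Mvd take in a fall down to their lower ends, no change, and a rise up to their upper ends.

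Idi1, the isomerase that converts isopentenyl diphosphate to dimethylallyl diphosphate, showed the largest difference of the 9. It read 5021 and 4763 in HFD, against 790 in ND. The HFD arrays lay close together and far above ND, at a log2 difference of 2.60 ± 0.11 (SE) and an adjusted p of 5.3e-09. In order of log2 difference Idi1 stood at place 54 of the 10341 genes. Its other probe set, which read 1962 and 2303 in HFD and 369 in ND, gave a log2 difference of 2.47. The Idi1 interval of 2.36 to 2.85 lay above those of the other 8 enzymes, whose upper ends reached at most 1.89, although no test of one enzyme against another was run.

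Fdps joins isoprenoid units into farnesyl diphosphate, from which sterols, prenyl groups and dolichol branch. It read 1887 and 1984 in HFD, against 807 in ND. Both HFD values exceeded the ND value, at a log2 difference of 1.24 ± 0.13 (SE) and an adjusted p of 7.4e-06. A second Fdps probe set stayed between 1.30 and 8.41 on all arrays, did not pass the filter and was not tested.

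**Figure D2:**
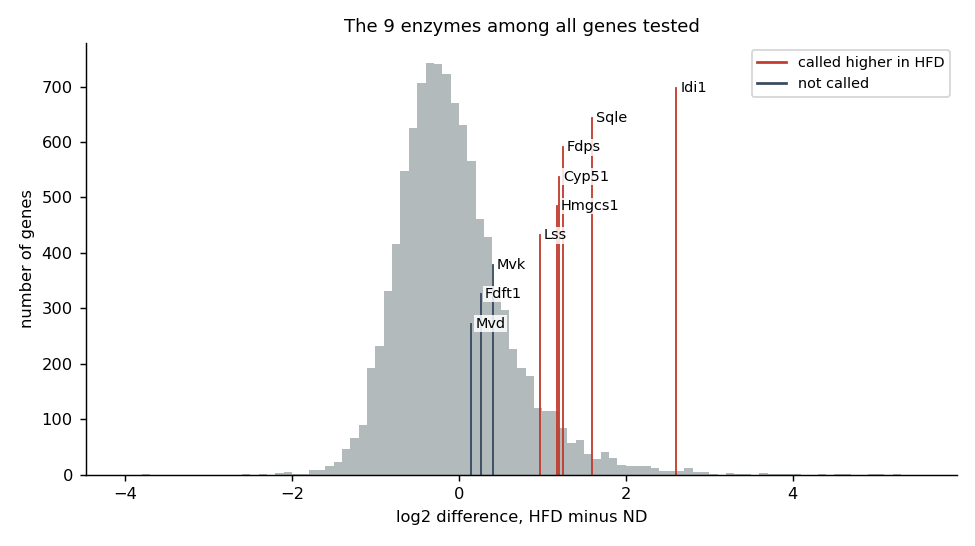
Number of genes (vertical axis) by log2 difference, HFD minus ND (horizontal axis, bins of 0.1), for the 10341 genes tested, with a line at each enzyme (red where called higher in HFD, dark where not called; line heights have no meaning). The 6 called enzymes lie between 0.97 and 2.60, in the right tail of the distribution, and Mvd, Fdft1 and Mvk lie between 0.15 and 0.40.

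On the sterol branch, Fdft1, the squalene synthase, commits farnesyl diphosphate to sterols. Its brightest probe set read 1448 and 1532 in HFD and 1241 in ND. Both HFD values were above ND, but the log2 difference of 0.26 had a 95% interval of -0.02 to 0.54 and an adjusted p of 0.11. That probe set carries the suffix x, by which Affymetrix marks probes that may also bind other transcripts. The brighter of the 2 Fdft1 probe sets without such a suffix read 771 and 867 in HFD and 582 in ND, and was called higher in the fit of single probe sets (log2 difference 0.48, adjusted p = 0.031). The call for Fdft1 therefore depended on the probe set. The other one without a suffix ran the opposite way, at 3.16 and 35.5 in HFD and 89.3 in ND (log2 difference -1.68), but did not pass the filter, nor did a dim one with the suffix x.

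Sqle, the squalene epoxidase, catalyses a step at which sterol flux is known to be controlled. Its only probe set read 1313 and 1432 in HFD, against 444 in ND. The HFD values lay close together, at a log2 difference of 1.59 ± 0.14 (SE) and an adjusted p of 1.9e-06. After Idi1 this was the largest difference among the 9. Cyp51, the demethylase of lanosterol, read 1275 and 1432 in HFD, against 577 in ND. Its log2 difference was 1.20 ± 0.14 (SE), with an adjusted p of 2.2e-05. Another Cyp51 probe set agreed in direction, with 814 and 864 in HFD and 428 in ND, and 1 more was dim on every array.

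Lss, which cyclises oxidosqualene to lanosterol, gave probe sets that disagreed. The brightest read 466 and 568 in HFD, against 254 in ND. On it Lss rose by a log2 difference of 0.97 ± 0.18 (SE), with an adjusted p of 8.1e-04. It carries the suffix s, given to probe sets shared by several transcripts. The brighter of the 2 Lss probe sets without a suffix read 126 and 115 in HFD and 170 in ND, at a log2 difference of -0.44 that was not called (adjusted p = 0.21 in the fit of single probe sets). The other was dim, at 25.4 and 45.4 in HFD and 20.5 in ND (log2 difference 0.45), did not pass the filter and was not tested. The call for Lss thus came from the suffixed probe set, and with suffixed probe sets left out the Lss difference turned to -0.44 (adjusted p = 0.20).

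**Figure D3:**
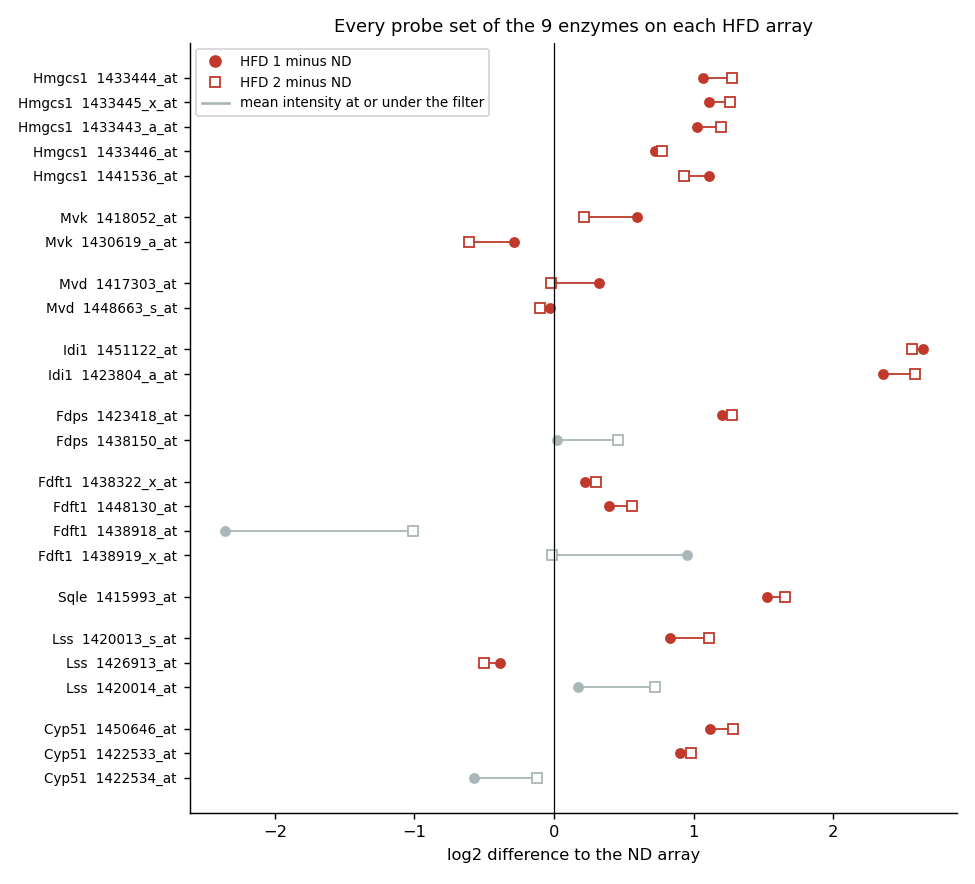
Log2 difference to the ND array (horizontal axis) for every probe set of the 9 enzymes, with HFD 1 as filled circles and HFD 2 as open squares joined by a line, and probe sets that did not pass the filter in grey. All 5 Hmgcs1 and both Idi1 probe sets lie right of 0, whereas those of Mvk, Mvd, Fdft1, Lss and Cyp51 fall on both sides, for Fdft1 and Cyp51 through probe sets that did not pass the filter.

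Counted by probe set, 19 of the 24 passed the filter, 13 were called higher and 0 lower, and 6 were not called. Those called include the dimmest Hmgcs1 probe set, which passed the filter only through its HFD values. Over all 22518 probe sets tested, 17.0% were called higher and 24.4% lower. By a rule of size that needs no p-value, a shift of 2-fold or more from ND, the same way on both HFD arrays, 5 enzymes were higher (Hmgcs1, Idi1, Fdps, Sqle and Cyp51) and 0 lower. The same rule took 6.00% of all genes higher and 2.60% lower. Lss missed it on HFD 1, where its log2 difference was 0.83. For 8 of the 9 enzymes ND lay below both HFD arrays, as it did for 35.8% of all genes tested.

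The HFD arrays differed from each other by less than from ND for the called enzymes. The median absolute log2 difference between the HFD arrays was 0.17 over the 9 enzymes and 0.13 over all genes, and the highest was 0.38, for Mvk. HFD 2 read above HFD 1 for 6 of the 9. Averaging all probe sets of a gene, dim ones included, left 5 enzymes called and lowered the median log2 difference to 0.60. It also ended the Lss call (adjusted p = 0.29).

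Other genes of cholesterol synthesis that were measured were mostly not called. Of these 10 genes, all for enzymes except Erg28, 2 rose, 1 fell and 7 were not called, where 20.5% of all genes rose and 29.2% fell. Their median log2 difference was -0.17, against 1.17 for the 9 enzymes and -0.15 for all genes. Erg28, an endoplasmic reticulum protein that tethers sterol enzymes in yeast, read 2658 and 2902 in HFD and 1754 in ND (log2 difference 0.66, adjusted p = 6.1e-04). Its probe set carries the suffix s, and with suffixed probe sets left out Erg28 was not tested. Msmo1, which oxidises the methyl groups of lanosterol products, read 1136 and 1213 in HFD and 849 in ND (log2 difference 0.46, adjusted p = 0.014). Both stood lower in ND than in either HFD sample. The Msmo1 call ended when all its probe sets were averaged (adjusted p = 0.82) or the variance had no trend (adjusted p = 0.056). Lbr, an inner nuclear membrane protein with sterol reductase activity, fell to 9518 and 9339 in HFD, against 13411 in ND (log2 difference -0.51, adjusted p = 2.9e-04). Pmvk, which acts between Mvk and Mvd, read 476 and 438 in HFD and 530 in ND and was not called. Tm7sf2, Nsdhl, Hsd17b7, Ebp, Sc5d and Dhcr7 were not called either on their brightest probe sets, at log2 differences of -0.44 to 0.27. Another Hsd17b7 probe set was called higher in the fit of single probe sets (log2 difference 0.83, adjusted p = 0.0047).

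**Figure D4:**
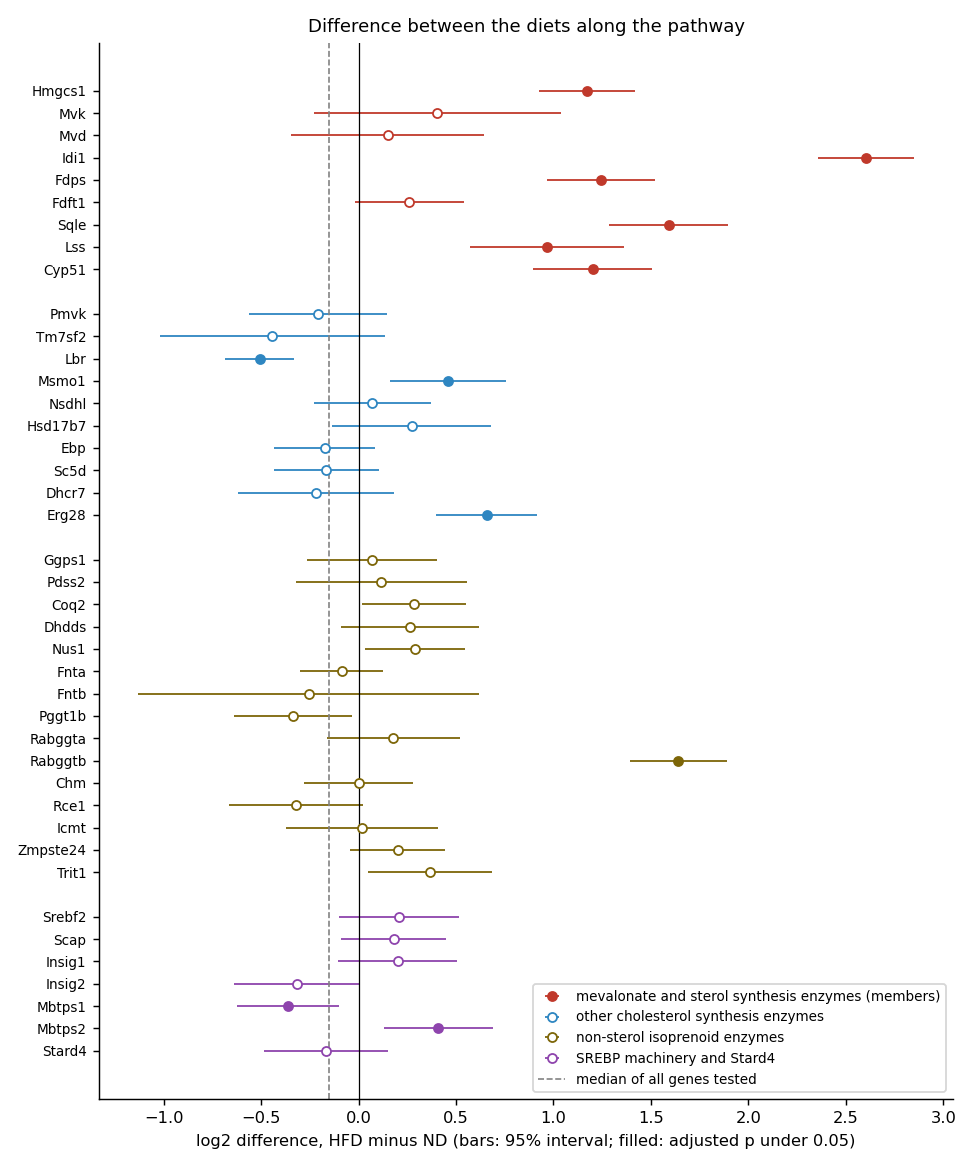
Log2 difference, HFD minus ND, with its 95% interval from limma, for the 9 enzymes and the other pathway genes measured, coloured by group; filled points had an adjusted p under 0.05, and the dashed line marks the median of all genes at -0.15. The called members lie at 0.97 and above, while the genes of the other groups stay within 0.66 of 0 apart from Rabggtb at 1.64.

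Genes for the use of mevalonate products outside sterols were largely not called. Of 15 measured, 1 rose, 0 fell and 14 were not called, where 20.5% of all genes rose and 29.2% fell. Their median log2 difference was 0.12. The exception was Rabggtb, the beta subunit of the transferase that geranylgeranylates Rab proteins, whose introns host small nucleolar RNAs. It read 3676 and 3861 in HFD, against 1196 in ND (log2 difference 1.64, adjusted p = 2.4e-07). With arrays centred on a common median 6 of the 15 were called higher, where 2757 of all 10341 genes were higher and 2097 lower. With a stricter filter 4 of 12 were higher and 1 lower, where 1877 genes in all were higher and 2326 lower. The count for this group thus depends on the settings.

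SREBP2 itself, encoded by Srebf2, read 960 and 892 in HFD and 799 in ND, a difference that was not called (log2 0.21, adjusted p = 0.24). Of 7 genes measured of the SREBP machinery (Srebf2, Scap, Insig1, Insig2, Mbtps1, Mbtps2 and the sterol carrier gene Stard4), 1 rose, 1 fell and 5 were not called. Over all genes 20.5% rose and 29.2% fell. With arrays centred 3 of the 7 rose and 0 fell, where 2757 of all 10341 genes rose and 2097 fell. Mbtps2, a protease that releases SREBP from the membrane, read 1561 and 1680 in HFD and 1216 in ND (adjusted p = 0.019). Mbtps1, the protease that cuts before it, fell to 1796 and 1752 in HFD, against 2286 in ND (adjusted p = 0.024). Neither call held without a variance trend (adjusted p = 0.074 for Mbtps2 and 0.086 for Mbtps1), and that for Mbtps1 also ended with arrays centred (adjusted p = 0.21). Scap and Insig1, the sterol-sensing escort and its anchor, differed by 0.18 and 0.20 on the log2 scale and were not called.

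Markers of cell division and of other cells moved between the same samples. Each count below stands beside a share of 20.5% higher and 29.2% lower over all genes tested. Of 13 cell division genes, 6 rose and 2 fell, and their summed intensity was 44107.5 and 46491.7 in HFD, against 24292.9 in ND. Without Pcna, Mcm2, Mcm3, Mcm5 and Cdk1, left out after their values were seen, the other 8 summed to 5814 and 5425 in HFD and 5835 in ND, with 1 higher and 2 lower. The replication helicase genes Mcm3, Mcm2 and Mcm5 rose by 1.80 to 1.97 on the log2 scale and Cdk1, the mitotic kinase, by 1.30, while the proliferation marker Mki67, chosen after its values were seen, fell by 0.45, a call that ended where the variance had no trend (adjusted p = 0.068) and with arrays centred on a common median (adjusted p = 0.067). Of 11 B cell genes, 2 rose (Ms4a1 and Fcer2a), 2 fell (Cd22 and Cd72), 2 were not called and 5 did not pass the filter. Ms4a1 and Fcer2a read 56.8 and 31.6 in ND, so both passed the filter of 71.4 only through the HFD arrays. The B cell sum was 3945 and 4196 in HFD, against 2630 in ND. Without Ms4a1 and Fcer2a, left out after their values were seen, it turned, to 1809 and 1714 in HFD, against 2541 in ND. Of the defining genes of the B cell receptor, Cd79a, which did not pass the filter, read 51.2 and 49.4 in HFD and 5.74 in ND, and Cd79b read 190 and 168 in HFD and 219 in ND and was not called. Macrophage and monocyte genes summed to 1011 and 1203 in HFD, against 2645 in ND. Of 11 such genes, 4 did not pass the filter, 6 were called lower and 0 higher. Vcam1, Csf1r, C1qb and Lyz2 fell by 1.07 to 1.77 on the log2 scale. C1qb and Vcam1 had HFD means of 50.2 and 69.4 and ND values of 128 and 268. These 2 passed the filter of 71.4 only through the ND array. Dendritic cell genes summed to 2462 and 2597 in HFD, against 4167 in ND. Of 8 such genes, 1 did not pass the filter, 5 were lower and 0 higher. Cd209a, Flt3, Siglech and Itgax fell by 0.76 to 1.62 on the log2 scale. Flt3 read 71.3 and 62.1 in HFD and 188 in ND, so it too passed only through the ND array. With arrays centred, 4 macrophage and 3 dendritic cell genes were lower, and C1qb and Itgax were among the calls that ended. Of 7 neutrophil genes, 2 rose (S100a8 and S100a9) and 4 did not pass the filter. S100a8 read 247 and 362 in HFD and 40.9 in ND, and S100a9 read 183 and 131 in HFD and 5.85 in ND. Both passed the filter only through the HFD arrays. The neutrophil sum was 611 and 692 in HFD, against 189 in ND, and Mpo and Elane read 2.36 to 21.9 on all arrays. For CD8 T cells 1 of 2 genes, Cd8a, rose, with a sum of 581 and 715 in HFD, against 449 in ND. The Cd8a call ended with no filter (adjusted p = 0.10), with all probe sets averaged (0.11) or those past the filter averaged (0.14), and with the probe set brightest on the ND array the difference was -0.28. For NK cells 2 of the 3 genes past the filter rose, Gzma and Eomes, and 2 more did not pass it. The Eomes call ended without a variance trend (adjusted p = 0.082) and with no filter (0.14). The NK cell sum was 1146 and 1226 in HFD, against 779 in ND, and 0 of 3 erythroid genes passed the filter. The part of these cells and of cell division in the enzyme differences was not tested, and fewer cells of a type cannot be told apart from less RNA per cell.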

How the data were processed

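The authors deposited linear intensity values per probe set, and the submitters' processing notes name GCOS, Affymetrix's software; its version, algorithm and background correction are not given here. The mean of each array, trimmed by 2% at each end, is 500.0, so a large change of bright transcripts shifts all other values of that array the other way. Present and absent calls were not used here. Of 45037 probe sets, 34945 had 1 symbol in the platform annotation, 932 several and 9160 none; 34741 matched RefSeq GRCm38.p6 by Entrez identifier and 0 symbols changed.

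The offset in log2(intensity + 17.7) was the 25th percentile of the deposited values, and a gene was tested where the mean of its brightest probe set exceeded 71.4, the median. The diets were compared with limma 3.58.1 in R 4.3.3 (lmFit, then eBayes with trend), two-sided. The residual has 1 degree of freedom, from the HFD arrays, moderated with 11.7 prior degrees of freedom, and the ND array is assumed to vary like them. A second fit took all 22518 probe sets past the filter. With 3 arrays in all, precision is limited by their number.

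The members, lists and tests were chosen with earlier results of these data known. Named were all members, every called gene of 3 pathway lists, and up to 4 of the most changed called markers per cell list; uncalled genes of these lists are named to complete them, and other genes are said to be chosen after their values were seen. Some pathway genes were not analysed here. No likeness between gene patterns was computed over 3 arrays. Tables and figures used Python 3.11.15, pandas 2.3.3, numpy 2.4.6 and matplotlib 3.10.9. Alternatives covered normalization, offset, filter, merging of probe sets, variance model, threshold and leaving out each HFD array.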

Additional observations from a re-analysis of the deposited data

How the results depend on the processing

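Under 14 alternatives with a test, 5 to 7 enzymes were called higher and 0 lower. All 9 were tested except with the filter at the 75th percentile, where 5 of 6 tested were called higher. Hmgcs1, Idi1, Fdps, Sqle and Cyp51 were called higher at an adjusted p under 0.05 in each setting that gave them one (highest adjusted p 0.027, for Cyp51 with all probe sets averaged). The median log2 difference of the 9 was 1.33 with arrays centred, which shifts the median of all genes to 0.0018, and 0.60 with all probe sets averaged, where 3 enzymes passed the rule of size. Averaging gave log2 differences of -0.023 for Mvk and -0.12 for Fdft1, and 0.32 for Lss. With the probe set brightest on the ND array Mvk stood at -0.45. The next alternatives were chosen after seeing the data. Averaging the probe sets past the filter gave -0.023 for Mvk, 0.37 for Fdft1 (called, adjusted p = 0.048) and 0.26 for Lss (not called). Without suffixed probe sets Lss stood at -0.44 and Fdft1 at 0.48 (called). Fdft1 was also called with arrays centred (0.41). Single HFD arrays gave -0.024 to 0.33 for Mvd. The Mbtps2 call ended with no filter (adjusted p = 0.051), and Cd8a stood at -0.28 with the probe set brightest on the ND array.

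Genes called lower numbered 3015, against 1922 with no filter and 1974 at an adjusted p of 0.01. Probe sets called lower numbered 5487, with 3818 called higher, and with arrays centred these were 3806 lower and 5016 higher. The lower count compares with 2665 with no filter, 2860 without a variance trend, where 2516 were called higher, and 3151 at an adjusted p of 0.01. The cause of each move besides the thresholds was not tested. Leaving out an HFD array leaves 1 array a group and no test. No paired analysis was possible, because ND has a single array and the labels do not pair it with an HFD array.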

Other observations

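Several pathway genes that were not called on their brightest probe set had another probe set called in the fit of single probe sets. These genes were chosen after their values were seen. Over all 22518 probe sets tested, 17.0% were called higher and 24.4% lower. Nus1, a subunit of the dolichol-making prenyltransferase, had 3 of 6 tested probe sets called higher, the most changed with 1063 and 1123 in HFD, against 456 in ND (log2 difference 1.23). Hsd17b7, a sterol ketoreductase, had a probe set with 385 and 432 in HFD, against 222 in ND (log2 difference 0.83). Stard4, a sterol carrier induced by SREBP2, had a probe set with 662 and 611 in HFD, against 347 in ND (log2 difference 0.84), while its other 2 were not called. Ggps1, which makes geranylgeranyl diphosphate, had 2 of 4 probe sets called lower, at log2 differences of -0.45 and -0.55. Chm, an escort protein for Rab prenylation, had 1 probe set called lower, with 825 and 861 in HFD, against 1252 in ND.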
